A study of Mus musculus with 6 samples.

Results

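The 10 genes described here carry haem through its breakdown and the released iron through its storage and transport: Hmox1, Hmox2, Blvra, Blvrb, Slc48a1, Fth1, Ftl1, Slc40a1, Tfrc and Cp. They were chosen by gene symbol, and all 10 were found among the 33696 genes in the count tables. The data are single-cell RNA counts of mouse brain cells in 6 libraries, 2 in each of 3 groups. The first group was wild type given vehicle (WT vehicle), the second was wild type given bilirubin (WT bilirubin), and the third carried a TRPM2 knockout that the labels write as TRPM2 Mg KO and was also given bilirubin (TRPM2 Mg KO bilirubin). Dose, duration, brain region, age, sex, the Cre or promoter behind the knockout and the number of animals behind a library are not given in the sources used here, and no vehicle-treated knockout was analysed here. Nothing says that the 2 libraries of a group came from separate animals, so the p-values measure library-to-library spread only, and that spread may be technical.

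Haem taken up from dying red cells is carried out of lysosomes by the transporter Slc48a1 (HRG1). Haem oxygenase, inducible Hmox1 or constitutive Hmox2, opens the ring to give biliverdin, carbon monoxide and free iron. Biliverdin reductase A (Blvra) turns biliverdin into bilirubin, the compound given to 2 of the 3 groups. Blvrb is a flavin reductase that also acts on other biliverdin isomers. Iron is stored in ferritin, built from heavy (Fth1) and light (Ftl1) chains. It leaves cells through ferroportin (Slc40a1) with the ferroxidase ceruloplasmin (Cp), and enters them through the transferrin receptor (Tfrc). In the brain, microglia clear debris, endothelial cells take transferrin-bound iron from blood, and oligodendrocytes hold much of the tissue's iron.

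In 4 of the 10 genes the transcript carries an iron-responsive element, a short hairpin read by the iron regulatory proteins, which block translation from a 5′ UTR hairpin and stabilise the mRNA through 3′ UTR hairpins. The hairpins are shown because they set ferritin and ferroportin apart from Tfrc and because, for the 5′ UTR type, mRNA counts do not report translation. Each was found in GENCODE M21 transcripts (build GRCm38), on the strand given, as a C, any 5 bases, the loop CAGTGN (capitals) and 5 bases that pair with those before the loop. The 5 outermost bases on each side also had to pair at most positions, and all 27 bases had to lie in the UTR.
Fth1, 5′ UTR, chr19:9982733-9982759, plus strand: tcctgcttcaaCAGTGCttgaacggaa
Ftl1, 5′ UTR, chr7:45459780-45459806, minus strand: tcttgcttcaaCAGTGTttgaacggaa
Slc40a1, 5′ UTR, chr1:45925466-45925492, minus strand: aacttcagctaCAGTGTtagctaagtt
Tfrc, 3′ UTR, chr16:32631220-32631246, plus strand: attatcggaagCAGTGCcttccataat
Tfrc, 3′ UTR, chr16:32631599-32631625, plus strand: attatcgggagCAGTGTcttccataat
Tfrc, 3′ UTR, chr16:32631664-32631690, plus strand: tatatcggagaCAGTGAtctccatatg
Tfrc, 3′ UTR, chr16:32631711-32631737, plus strand: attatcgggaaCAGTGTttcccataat
The search matched the 5′ UTR of 9 of 21877 protein-coding genes (0.0411%) and the 3′ UTR of 36 (0.165%). A match is a description of these letters and not a measurement of binding.

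The libraries held 4137 to 24309 cell barcodes each and 24165563 to 63402551 UMIs (unique molecular identifiers, each 1 captured RNA molecule). Of 95014 barcodes, 94144 passed the cell filter. Cells were sorted into 17 classes by marker genes that include none of the 10 members, with at least 3 of 10 markers of a class and no more than 0.5 times as many of any other. This placed 30872 cells, and 28182 cells that held markers of more than 1 class were left out, the only treatment of doublets. The libraries shared 980 barcodes, and 664 of the placed cells carried one. Haemoglobin transcripts took 2.92% and 3.46% of the UMIs under WT vehicle, 0.632% and 1.28% under WT bilirubin, and 3.19% and 0.0936% under TRPM2 Mg KO bilirubin. Mitochondrial transcripts took 1.07% and 0.923% under WT vehicle, 4.87% and 0.780% under WT bilirubin, and 3.73% and 3.98% under TRPM2 Mg KO bilirubin. The part of this uneven mitochondrial share in the group comparisons was not tested. Levels are given as UMIs per 1000000 UMIs of the class and library (CPM), scaled within a class by the trimmed mean of M-values (TMM). In microglia-like cells Trpm2 had a CPM of 19.6 and 14.4 in WT vehicle, 18.5 and 31.8 in WT bilirubin, and 14.4 and 21.6 in TRPM2 Mg KO bilirubin. The groups overlapped, but the reads come from the 3′ end and the deleted part of the gene is not given, so this does not check the knockout.

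The 6 classes with at least 20 cells in every library were tested: microglia-like (11680 cells), choroid plexus epithelium-like (7887), endothelial-like (4495), astrocyte-like (2596), ependymal-like (1050) and oligodendrocyte-like (804). Each member's level was first compared across these classes within libraries, with the 3 groups pooled. Hmox1 and Ftl1 were highest in microglia-like cells, Slc40a1 and Tfrc in endothelial-like cells, Slc48a1 and Fth1 in oligodendrocyte-like cells, and Cp in ependymal-like and endothelial-like cells. Of 60 member and class pairs, 49 differed from the mean of the other 5 classes (edgeR quasi-likelihood test with library as a block, adjusted p under 0.05), 20 higher and 29 lower. The background over all genes was 51.6% called, so the count itself does not set the members apart. The same count was 45 to 51 when each library was left out in turn.

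**Figure D1:**
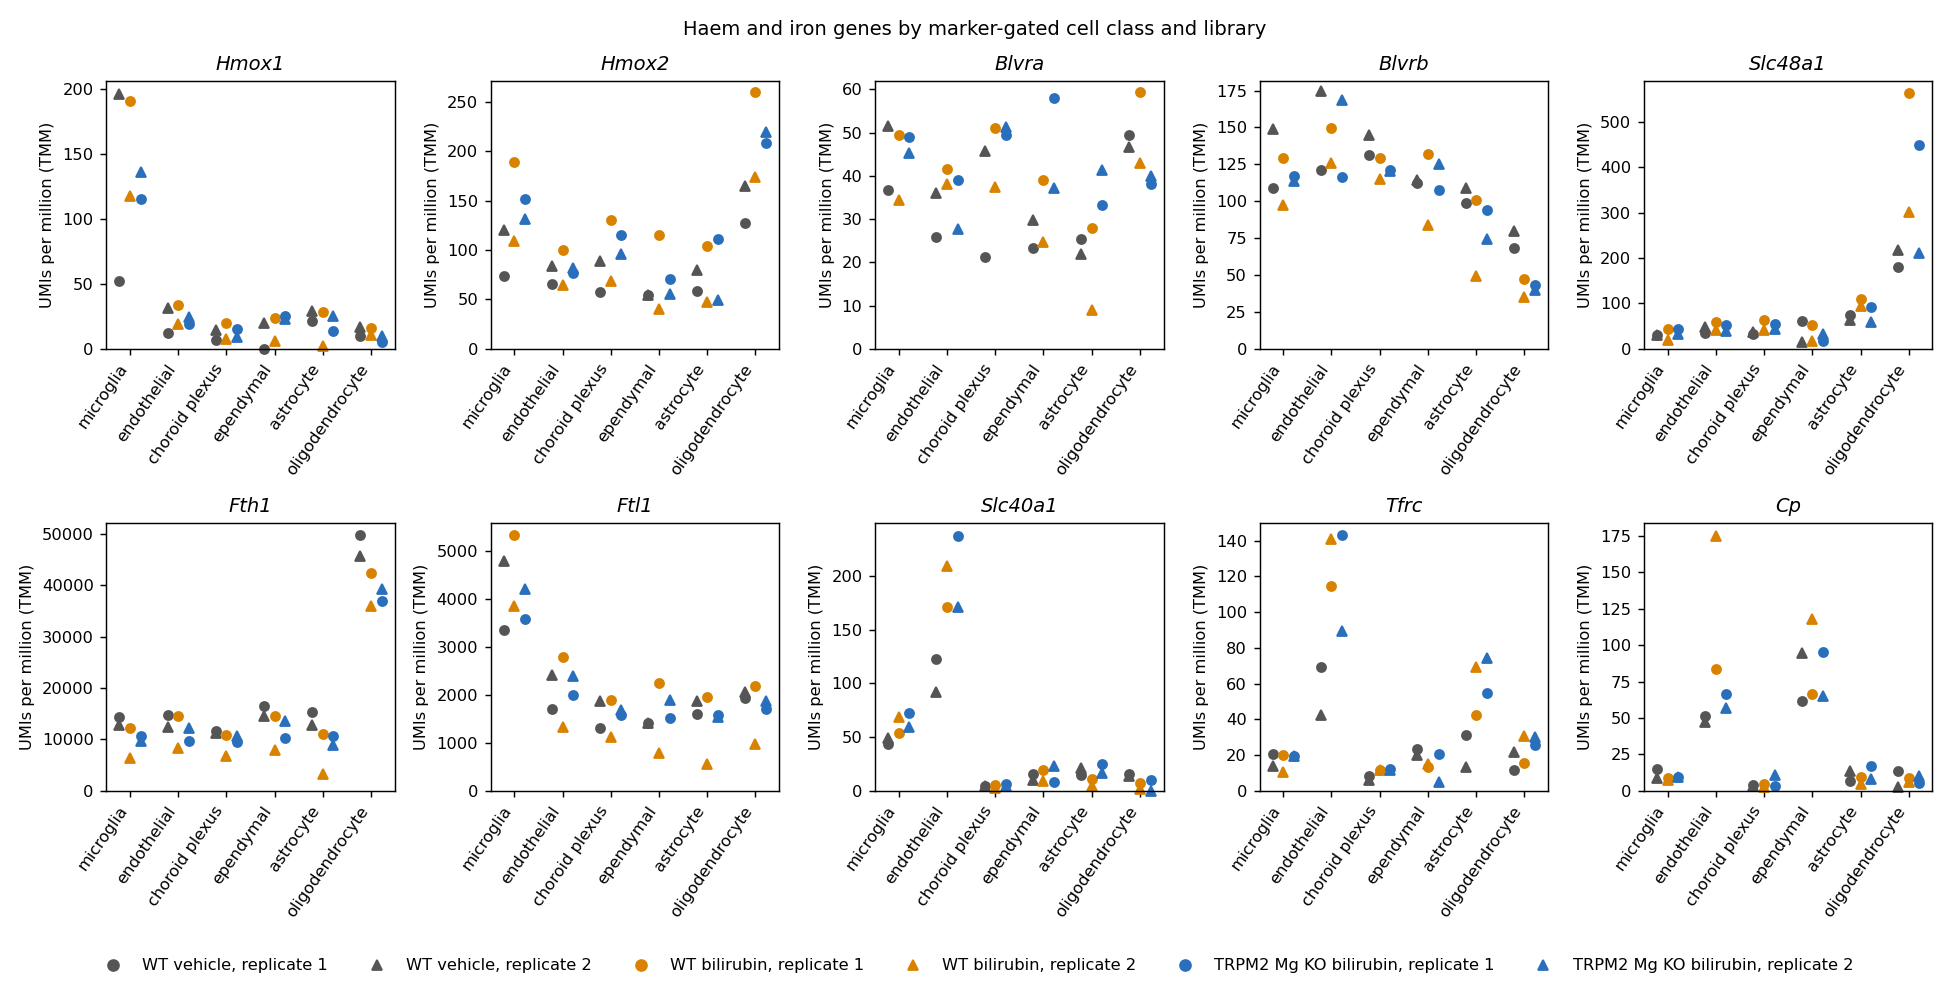
Level of each of the 10 members (CPM, vertical axis from 0, a scale of its own in each panel) in the 6 tested classes, with 1 point per library coloured by group. The 6 libraries of Hmox1 in microglia-like cells, of Slc40a1 in endothelial-like cells and of Slc48a1 and Fth1 in oligodendrocyte-like cells lie above those of every other class.

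Slc48a1, which moves haem out of the lysosome, averaged a CPM of 320.2 ± 153.9 (SD, n = 6 libraries) in oligodendrocyte-like cells. Every library there was above every library of the other classes, and the mean was 3.89 times that of the next class, astrocyte-like cells (82.2). Its log2 difference from the mean of the other classes was 2.76 (SE 0.12).

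Hmox1, the inducible enzyme that opens haem, averaged a CPM of 134.6 ± 53.6 (SD, n = 6 libraries) in microglia-like cells. The lowest microglia-like library (52.2) was above the highest library of any other class, and the mean was 5.78 times that of endothelial-like cells (23.3) and 12.1 times that of oligodendrocyte-like cells (11.2). The log2 difference was 3.06 (SE 0.13). Hmox2, the constitutive isoenzyme, had another order: oligodendrocyte-like cells (CPM 192.5 ± 46.9) came first, then microglia-like (129.3), choroid plexus epithelium-like (92.8), endothelial-like (78.7), astrocyte-like (75.1) and ependymal-like cells (65.0). Neighbours in that order overlapped between libraries. Hmox2 was higher than the mean of the other classes by a log2 of 1.11 in oligodendrocyte-like cells, 0.58 in choroid plexus epithelium-like cells and 0.46 in microglia-like cells.

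The 2 reductases had the narrowest range of mean CPM over the classes. Blvra, which makes bilirubin, ranged only from a CPM of 26.5 in astrocyte-like cells to 46.1 in oligodendrocyte-like cells, with overlapping neighbours throughout. By the test it was higher than the mean of the other classes in choroid plexus epithelium-like cells (log2 0.96, a class whose scaling is treated below), oligodendrocyte-like cells (0.40) and microglia-like cells (0.31). The call in microglia-like cells was lost without WT vehicle 2 (0.28), and that in oligodendrocyte-like cells was lost in 10 alternatives, among them leaving out WT vehicle 1 (0.28), WT vehicle 2 (0.39), WT bilirubin 1 (0.30), WT bilirubin 2 (0.31) or TRPM2 Mg KO bilirubin 2 (0.36). On the CPM scale Blvrb was highest in endothelial-like cells (142.5 ± 25.2) and lowest in oligodendrocyte-like cells (52.2 ± 17.7). The test gave log2 differences of 1.07 in choroid plexus epithelium-like, 0.42 in endothelial-like and −1.17 in oligodendrocyte-like cells. Oligodendrocyte-like cells thus had the highest mean CPM of Hmox2 and the lowest of Blvrb among the tested classes.

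The ferritin chains parted between cell types. Fth1, the heavy chain with the ferroxidase site, averaged a CPM of 41681 ± 5368 in oligodendrocyte-like cells, with libraries from 35952 to 49803. That was 3.23 times the next class, ependymal-like cells (12924), and the log2 difference was 1.91 (SE 0.09). Ftl1, the light chain, was highest in microglia-like cells (4192 ± 756, log2 1.38, SE 0.09), at 1.99 times endothelial-like cells (2104), and lowest in astrocyte-like cells (1517). Both orders held library by library for the top class. The tables also list the copy Ftl1-ps1 at 15.2 to 38.5 CPM in whole libraries, beside 1382 to 2823 for Ftl1, so how reads were split between the 2 is uncertain.

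Slc40a1, the iron exporter, had the widest range of the transport genes. It averaged a CPM of 167.3 ± 53.5 in endothelial-like cells and 57.8 ± 11.4 in microglia-like cells, each above the next class in every library, and 4.54 in choroid plexus epithelium-like cells. The log2 differences were 3.39 (SE 0.14) in endothelial-like cells and 1.73 (SE 0.15) in microglia-like cells. Cp, its partner ferroxidase, was highest in ependymal-like cells (83.5 ± 22.5, log2 2.40, SE 0.22) and endothelial-like cells (80.2 ± 48.3, log2 2.49, SE 0.18), whose libraries overlapped, and stood at 4.72 in choroid plexus epithelium-like cells. Tfrc, the importer, averaged 100 ± 40.3 in endothelial-like cells (log2 2.25, SE 0.15) and 47.7 ± 23.2 in astrocyte-like cells (log2 0.70, SE 0.19), against 10.3 to 22.5 in the other classes. Endothelial-like cells were therefore at or near the top for import, export and the export ferroxidase together.

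Choroid plexus epithelium-like cells carry a caution. Their TMM factor over the 36 class-by-library sums was 0.64 to 0.812, against 0.933 to 1.23 in the other classes, so the test places their genes higher than the CPM does. With that scaling 4 members were higher there than in the other classes: Blvrb (log2 1.07), Blvra (0.96), Hmox2 (0.58) and Ftl1 (0.33). With plain UMI totals, an alternative chosen after seeing the data, Blvrb was 0.43 and Blvra 0.29 higher, while Hmox2 (−0.076) and Ftl1 (−0.31) turned direction. In other classes 6 lower calls were lost with plain totals: Blvra and Slc40a1 in ependymal-like cells, Blvrb, Cp and Slc40a1 in astrocyte-like cells, and Fth1 in endothelial-like cells.

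The genes whose level was most like that of Hmox1 over the 36 sums were Cmtm7 (Pearson r = 0.907), Gng10 (0.883), Limd2 (0.879), Tnfaip8l2 (0.863) and Tpst2 (0.862), among the 7141 genes whose mean CPM over the sums reached 20. The points share libraries and classes, so r is a description. Each of the 5 had its highest mean in microglia-like cells, for example Tnfaip8l2 with a CPM of 135.2 there against 9.19 to 17.6 elsewhere. Ftl1 ranked 10 in that order (r = 0.826).

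Other genes of haem and iron handling were read from chosen lists. Of 6 tested genes for haem uptake and scavenging, endothelial-like cells had 2 higher and 2 lower, led by Abcg2, a haem and drug exporter (log2 3.33, CPM 549.6 against 53.6), and Flvcr2 (3.07). Of 9 haem synthesis genes, choroid plexus epithelium-like cells had 6 higher and 1 lower, and oligodendrocyte-like cells had 2 higher and 1 lower, led by Cpox, the coproporphyrinogen oxidase (4.48, 252.5 against 11.2). Of 13 iron genes, choroid plexus epithelium-like cells had 5 higher and 3 lower, and oligodendrocyte-like cells had 1 higher and 4 lower. The 1 was Trf, transferrin (3.89, CPM 3288 against 249.7), so these cells had the highest mean of the iron carrier together with those of Fth1 and Slc48a1. Of 8 regulators, microglia-like cells had 4 higher and 2 lower, among them Bach1, the haem-sensing repressor of Hmox1 (1.91), and Nfe2l2, which encodes the activator NRF2 (1.51). Of 12 NRF2 targets, microglia-like cells had 2 higher and 8 lower, and endothelial-like cells 1 and 7. Choroid plexus epithelium-like cells had 6 and 3, ependymal-like 4 and 2, astrocyte-like 3 and 2, and oligodendrocyte-like 3 and 4. The background was 28% higher and 32.4% lower in microglia-like cells, 19% and 21.2% in endothelial-like cells, 32.1% and 44.8% in choroid plexus epithelium-like cells, and 20.3% and 23.8% in oligodendrocyte-like cells. It was 20.8% and 24.7% in ependymal-like cells, and 21.5% and 20.8% in astrocyte-like cells. All 12 immediate-early and dissociation genes were higher in microglia-like and endothelial-like cells, the classes highest for Hmox1 and Slc40a1, and lower in choroid plexus epithelium-like and astrocyte-like cells. Their part in the class differences was not tested.

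The group comparisons asked whether bilirubin moved these genes in any cell class and whether the TRPM2 knockout altered that. No member passed the test in any of them. Of the 60 member and class pairs, 53 passed the low-count filter, and 0 of 53 were called for WT bilirubin against WT vehicle (background 0.471%), for TRPM2 Mg KO bilirubin against WT bilirubin (background 0.0259%) and for TRPM2 Mg KO bilirubin against WT vehicle (background 0.0404%; edgeR quasi-likelihood test, Benjamini-Hochberg adjusted over all genes of a class). DESeq2's Wald test also called 0. At an unadjusted p under 0.05 there were 7, 2 and 5 of the 53 pairs, beside a background of 14.7%, 3.15% and 7.82%. The median log2 difference of the pairs was 0.10, 0.08 and 0.11 in the 3 comparisons, against 0.03, 0.00 and −0.01 over all genes. The third comparison shares its libraries with the other 2. Lower RNA per cell and fewer contributing cells of a subtype cannot be told apart in such sums. An exact permutation test of 2 libraries against 2 cannot go below p = 0.333.

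**Figure D2:**
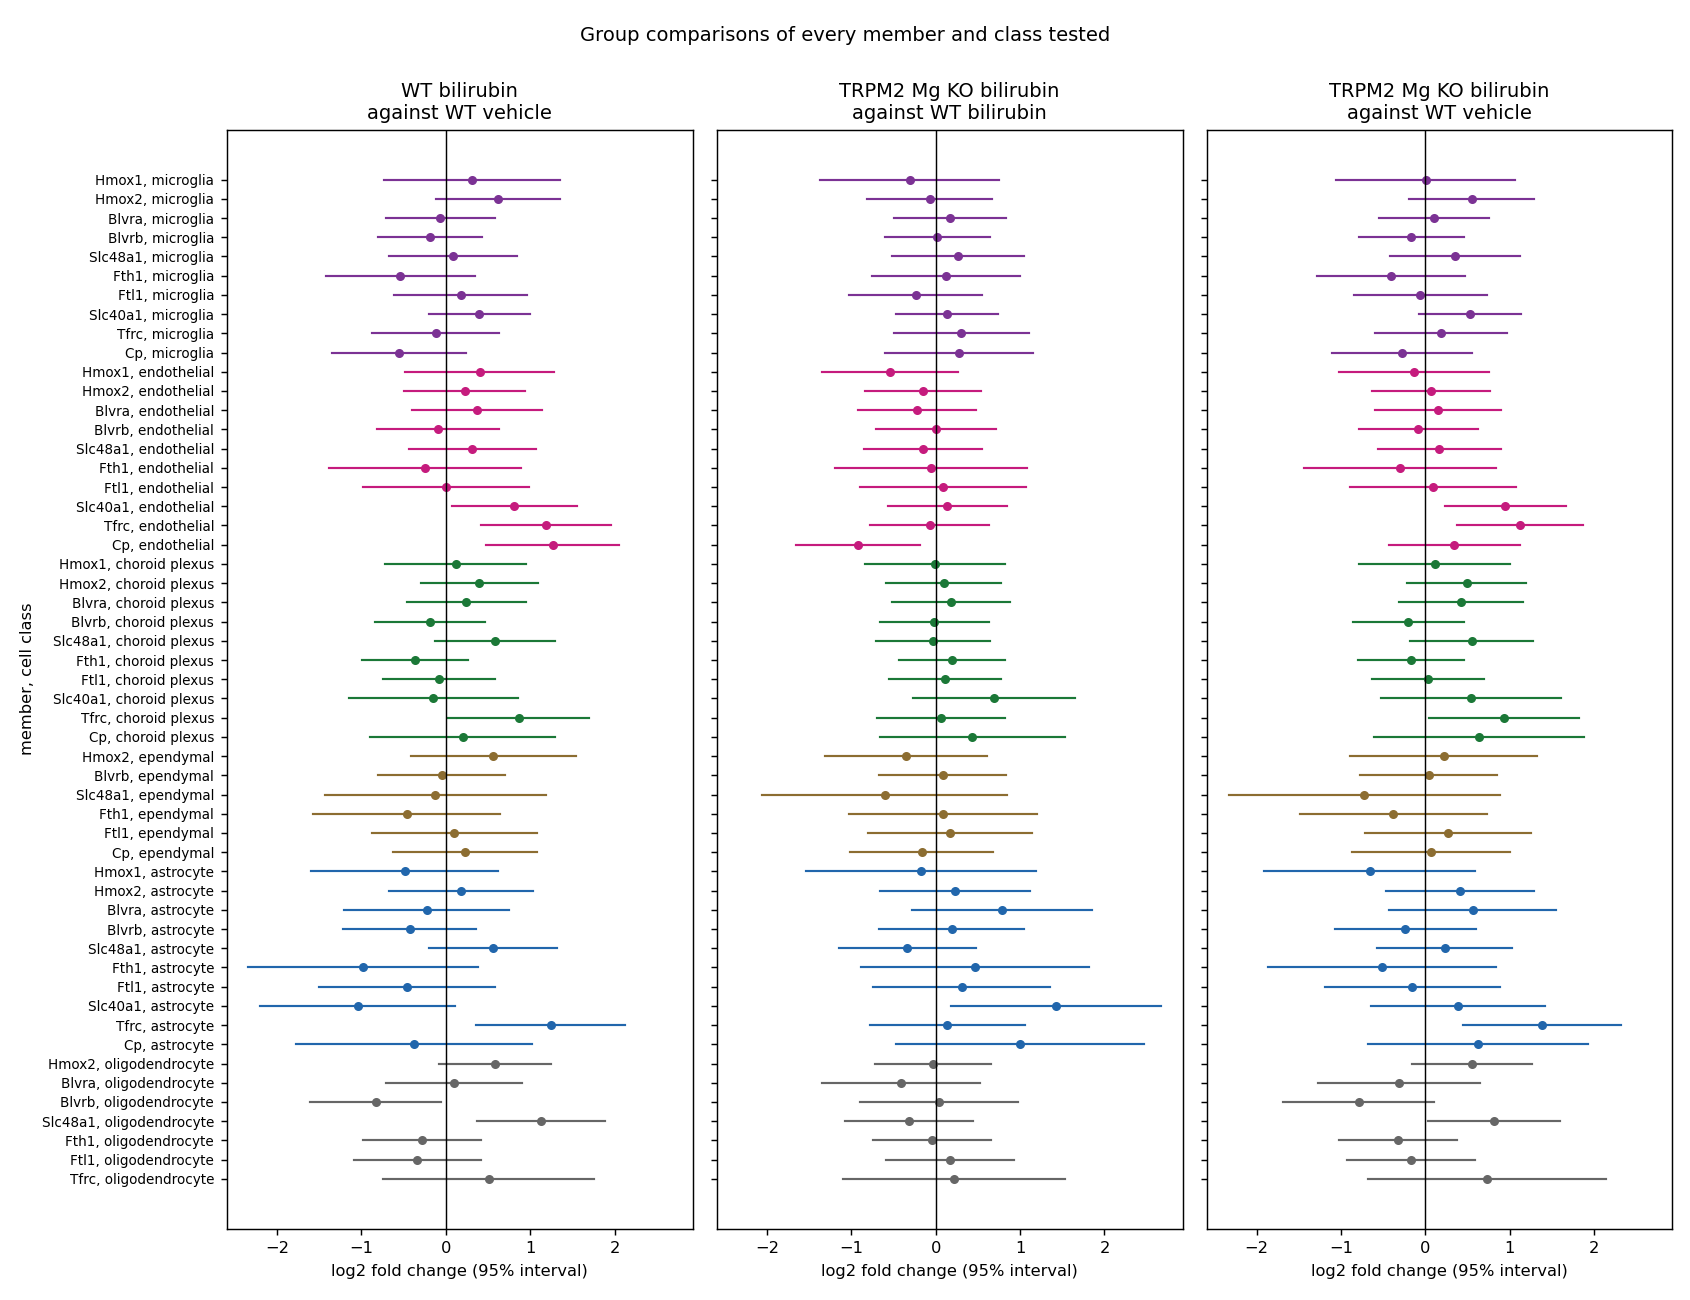
Log2 difference (horizontal axis) of the 53 tested member and class pairs with its 95% interval, in 1 panel for each of the 3 group comparisons and coloured by class. None passed the adjusted test, and the intervals of 7, 2 and 5 pairs leave out 0.

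Hmox1 in microglia-like cells had a CPM of 52.2 and 196 in WT vehicle, 190.6 and 117.6 in WT bilirubin, and 115 and 136.2 in TRPM2 Mg KO bilirubin. The 2 vehicle libraries were the lowest and the highest of the 6, 3.75-fold apart, so all 3 groups overlapped. The log2 difference was 0.31 (SE 0.48, 95% interval −0.73 to 1.36) for bilirubin, −0.31 (SE 0.49, −1.37 to 0.75) for the knockout against WT bilirubin, and 0.00 (SE 0.49, −1.05 to 1.06) for the knockout against vehicle. Only the third interval reaches a log2 of 1 in both directions, while the first does so upwards and the second downwards. The bilirubin difference was −0.35 without WT vehicle 1 and −0.09 without WT bilirubin 1, and the knockout difference against WT bilirubin was 0.049 without WT bilirubin 1. The same vehicle pair was also 2.62-fold apart in endothelial-like cells and 2.26-fold apart in choroid plexus epithelium-like cells.

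The share of microglia-like cells with an Hmox1 UMI also differed most between the 2 vehicle libraries. It was 6.95% and 21.4% in WT vehicle, 22.2% and 15.9% in WT bilirubin, and 15.4% and 21.3% in TRPM2 Mg KO bilirubin. Thinned to 1000 UMIs per cell, which left out 621, 402 and 217 shallower cells of the 3 groups in that order, it was 4.25% and 11.98%, 11.02% and 9.70%, and 7.18% and 9.62%. Thinned T or NK cell-like cells, which should hold little Hmox1, were at 0 to 1.31%, below the microglia-like share in every library. Median depth was 1465 to 2184 UMIs in microglia-like cells and 2147 to 3482 in T or NK cell-like cells.

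Endothelial-like cells held 3 of the 7 pairs with an unadjusted p under 0.05 for bilirubin (3 of 10 members beside a background of 16.4% in this class, and 0 of 10 beside 0.489% at an adjusted p under 0.05). The 3 members were the transport genes Slc40a1, Tfrc and Cp. Slc40a1 had a CPM of 123 and 92.3 in WT vehicle, 170.7 and 209.5 in WT bilirubin, and 237.2 and 171.4 in TRPM2 Mg KO bilirubin. Both bilirubin groups lay above vehicle and overlapped each other. The log2 difference was 0.81 (SE 0.36, adjusted p = 0.253) for bilirubin and 0.95 (SE 0.35, adjusted p = 0.272) for the knockout against vehicle. Tfrc, which was picked out after its values were seen, had a CPM of 69.4 and 42.4 in WT vehicle, 114.4 and 141 in WT bilirubin, and 143 and 89.6 in TRPM2 Mg KO bilirubin. Its log2 difference was 1.19 (SE 0.38, adjusted p = 0.105) for bilirubin and 1.12 (adjusted p = 0.233) for the knockout against vehicle. Between the knockout and WT bilirubin both genes overlapped, with log2 differences of 0.14 (95% interval −0.57 to 0.84) for Slc40a1 and −0.07 (−0.78 to 0.64) for Tfrc.

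Cp in endothelial-like cells had a CPM of 51.6 and 47.4 in WT vehicle, 83.4 and 175.2 in WT bilirubin, and 66.4 and 57.1 in TRPM2 Mg KO bilirubin. The 2 WT bilirubin libraries were the highest, with a wide gap between them, and the knockout lay between the other groups. The log2 difference was 1.27 (SE 0.39, adjusted p = 0.0930) for bilirubin and −0.92 (SE 0.36, adjusted p = 1.00) for the knockout against WT bilirubin. Without WT bilirubin 1, which leaves 1 library in the group, the bilirubin difference was 1.77. It passed the test at 1.48 when 2 markers sufficed for a class. Cp in ependymal-like cells, its other high class, overlapped in all 3 groups, at 61.9 and 94.3 in WT vehicle, 66.6 and 118 in WT bilirubin, and 95.1 and 64.9 in TRPM2 Mg KO bilirubin. Blvrb in endothelial-like cells also overlapped, at 121 and 174.5, 149.4 and 125.7, and 116.2 and 168.3 in the same order (log2 −0.09, SE 0.35 for bilirubin). It was 0.21 without WT vehicle 2 and 0.00 without WT bilirubin 2.

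The summed endothelial markers moved with these genes. They had a CPM of 6146 to 6189 in WT vehicle, 11754 to 13212 in WT bilirubin, and 9538 to 11516 in TRPM2 Mg KO bilirubin, while haemoglobin was 8716 to 27069, 1002 to 3595, and 329 to 8366. The summed immediate-early genes were 3162 to 3278, 5155 to 7505, and 5167 to 5408. Per 1000 CPM of endothelial markers, Slc40a1 was 20.01 and 14.9 in WT vehicle, 14.5 and 15.9 in WT bilirubin, and 20.6 and 18.0 in TRPM2 Mg KO bilirubin. Vehicle overlapped both bilirubin groups on that scale, and the knockout libraries lay above the WT bilirubin libraries. Tfrc on that scale was 11.3 and 6.85, 9.73 and 10.7, and 12.4 and 9.39. Cp was 8.39 and 7.66, 7.09 and 13.3, and 5.76 and 5.99. The markers were used to choose these cells, and the part of markers, haemoglobin and dissociation genes in the differences was not tested.

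**Figure D3:**
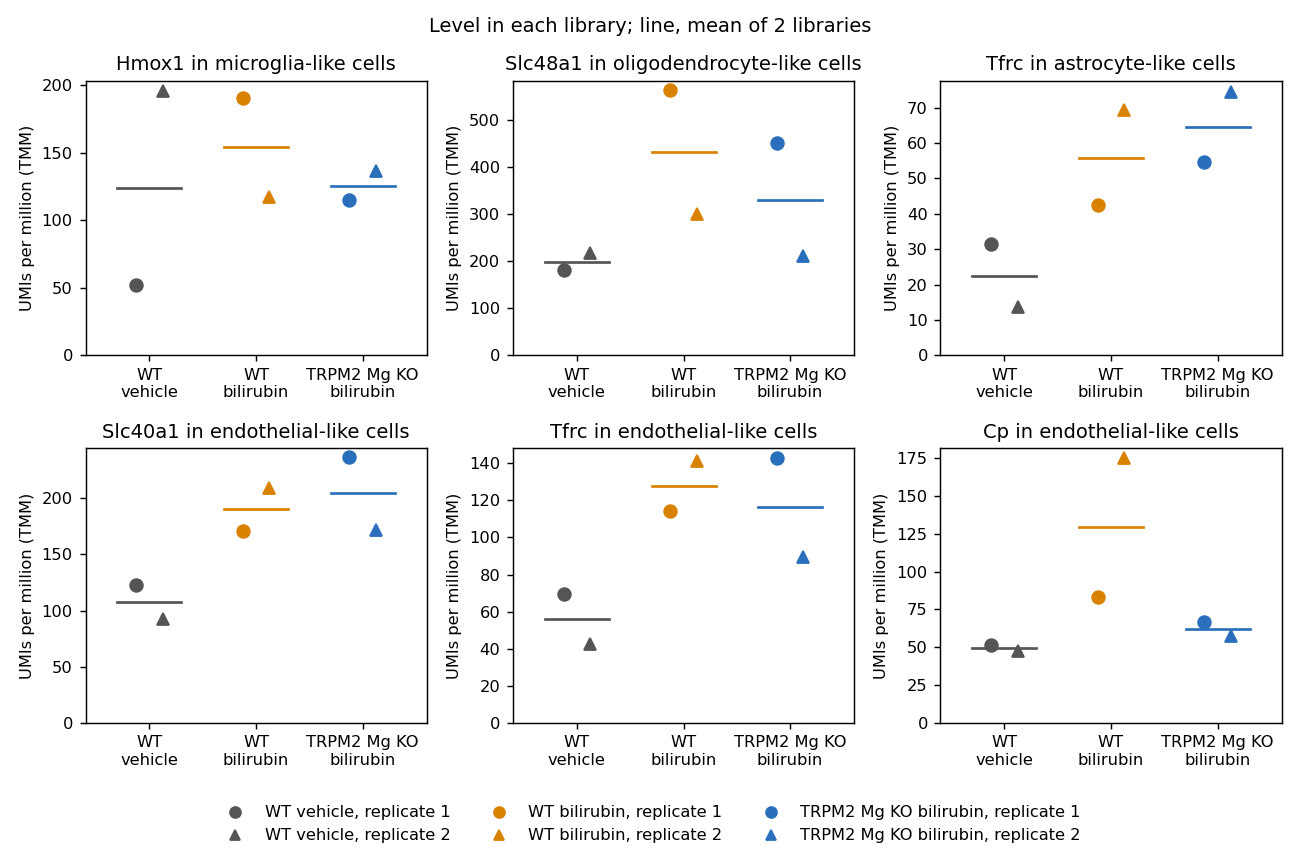
Level (CPM, vertical axis) of 6 member and class pairs in each of the 6 libraries, grouped as WT vehicle, WT bilirubin and TRPM2 Mg KO bilirubin, with the group mean as a line. Hmox1 in microglia-like cells overlaps in all groups, while the 2 vehicle libraries are lowest for Slc40a1, Tfrc and Cp in endothelial-like cells.

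In oligodendrocyte-like cells 2 of 7 members had an unadjusted p under 0.05 for bilirubin (background 15.1%), and 0 of 7 passed after adjustment (background 2.12%). Slc48a1, also picked out after its values were seen, had a CPM of 180.3 and 216.9 in WT vehicle, 562.7 and 300.9 in WT bilirubin, and 450 and 210.2 in TRPM2 Mg KO bilirubin. Both WT bilirubin libraries were above both vehicle libraries, and the knockout libraries overlapped both other groups. The log2 difference for bilirubin was 1.13 (SE 0.37, adjusted p = 0.109). It was 1.51 without WT bilirubin 2, which leaves 1 library in the group. It passed the test at 1.21 with no low-count filter and at 1.28 when 2 markers sufficed for a class. The oligodendrocyte markers had a CPM of 5619 to 5920 in WT vehicle, 9037 to 9840 in WT bilirubin and 7307 to 8928 in TRPM2 Mg KO bilirubin. Per 1000 CPM of them, Slc48a1 was 32.1 and 36.6, 62.3 and 30.6, and 50.4 and 28.8, and the groups overlapped. Blvrb in these cells was at 68.3 and 79.6, 47.2 and 34.8, and 43.2 and 40.04, the 2 vehicle libraries highest, with a log2 difference of −0.83 (SE 0.38, adjusted p = 0.289) for bilirubin. The fewest cells behind an oligodendrocyte-like sum were 25, in TRPM2 Mg KO bilirubin 2.

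Astrocyte-like cells had 1 of 10 members at an unadjusted p under 0.05 for bilirubin (background 14.1%) and 0 of 10 after adjustment (background 0.198%). Tfrc, the 1, had a CPM of 31.4 and 13.6 in WT vehicle, 42.5 and 69.3 in WT bilirubin, and 54.6 and 74.5 in TRPM2 Mg KO bilirubin. Vehicle was lowest, and the bilirubin groups overlapped. The log2 difference was 1.24 (SE 0.43, adjusted p = 0.164) for bilirubin and 1.38 (adjusted p = 0.923) for the knockout against vehicle. Without WT bilirubin 1, which leaves 1 library in the group, the first was 1.61. Tfrc in choroid plexus epithelium-like cells had the same order at a lower level, 8.48 and 5.97, 11.7 and 11.4, and 12.3 and 11.7, and did not pass either (log2 0.86, adjusted p = 0.404). The summed astrocyte markers had a CPM of 4710 to 5463 in WT vehicle, 6288 to 8026 in WT bilirubin and 5936 to 6438 in TRPM2 Mg KO bilirubin. Per 1000 CPM of them, Tfrc in astrocyte-like cells was 5.75 and 2.88, 6.76 and 8.63, and 8.49 and 12.6, with vehicle still the lowest.

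Both WT vehicle libraries lay above all bilirubin-treated libraries for Fth1 in microglia-like, choroid plexus epithelium-like, ependymal-like, astrocyte-like and oligodendrocyte-like cells. In ependymal-like cells the margin was narrow, with WT vehicle 2 at 14611 and WT bilirubin 1 at 14599. The same 6 libraries lie behind every class, so the classes are not separate evidence. The share of all genes with this order was not computed. In microglia-like cells the CPM of Fth1 was 14289 and 12746 in WT vehicle and 12194 and 6414 in WT bilirubin. The knockout libraries there had 10609 and 9722. Endothelial-like cells overlapped (WT bilirubin 1 at 14646, WT vehicle at 14672 and 12459). With all libraries none of these differences passed. For ferritin, 1 library was the lowest in most classes. WT bilirubin 2 had the lowest Fth1 in 6 of 6 tested classes and the lowest Ftl1 in 5 of 6. The exception was microglia-like cells, where WT vehicle 1 had the lowest Ftl1 (3357). The share of all genes that were lowest in WT bilirubin 2 was not computed. In astrocyte-like cells Fth1 had a CPM of 15316 and 12721 in WT vehicle, 10963 and 3213 in WT bilirubin, and 10669 and 8883 in TRPM2 Mg KO bilirubin, and Ftl1 had 1594 and 1876, 1956 and 559, and 1578 and 1540. The ratio of WT bilirubin 2 to WT bilirubin 1 for Fth1 ran from 0.293 in astrocyte-like cells to 0.848 in oligodendrocyte-like cells. The markers of other classes were also lowest in this library in each tested class, for example 1761 CPM in microglia-like cells against 2785 to 3127 in the other libraries. Their part in the ferritin values was not tested.

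In astrocyte-like cells most of the ferritin differences turned on that library. With WT bilirubin 1 left out, only this library stands for the group and is assumed to vary like the others. The bilirubin difference was then a log2 of −2.09 for Fth1, −1.60 for Ftl1 and −3.35 for Hmox1. The knockout against WT bilirubin was then 1.56 for Fth1 and 1.44 for Ftl1. With WT bilirubin 2 left out, Ftl1 (0.18) and Hmox1 (0.17) turned to the other direction for bilirubin, and Fth1 (−0.18) and Ftl1 (−0.34) did so for the knockout against WT bilirubin. Fth1 for bilirubin against vehicle kept its direction, with WT bilirubin 1 at a CPM of 10963 and WT vehicle at 15316 and 12721. With all libraries the bilirubin differences were −0.98 (SE 0.66) for Fth1, −0.46 (SE 0.51) for Ftl1 and −0.49 (SE 0.54) for Hmox1, none of which passed.

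**Figure D4:**
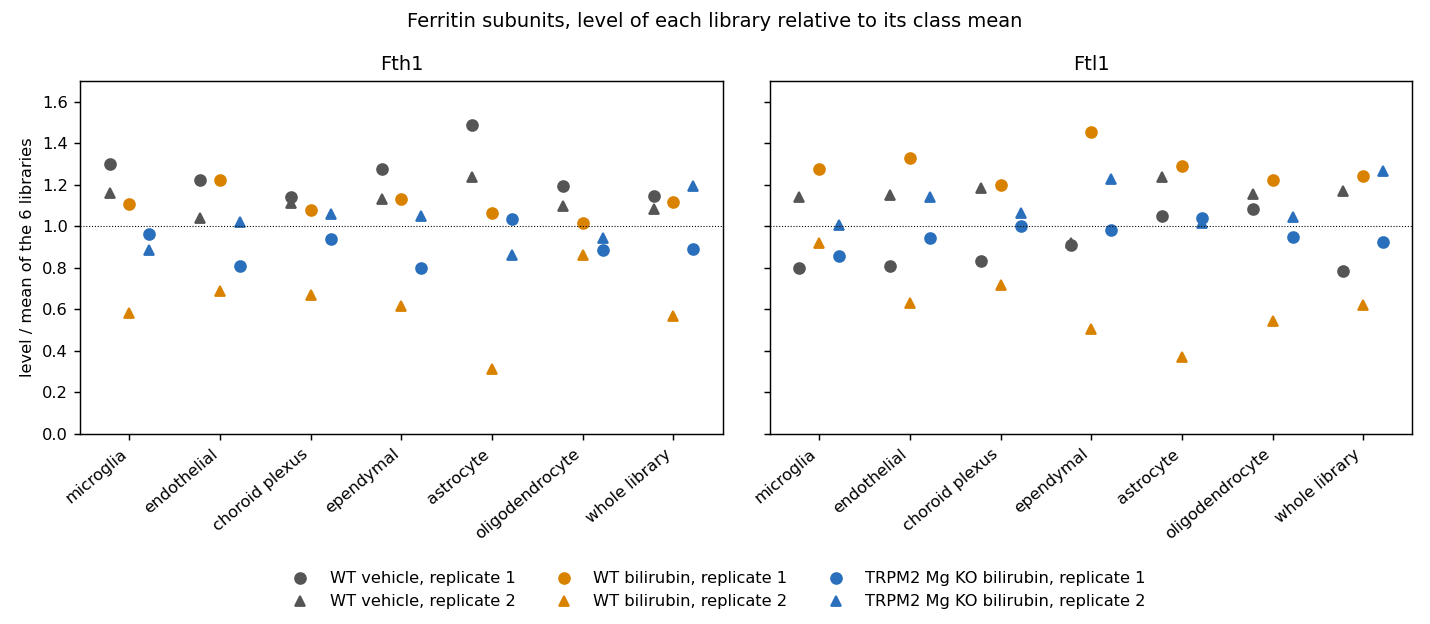
Fth1 and Ftl1 in each tested class and in whole libraries, with 1 point per library: its level divided by the mean of the 6 libraries (vertical axis, no unit). WT bilirubin 2 is the lowest point for Fth1 in all 6 classes and for Ftl1 in 5 of 6.

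In whole libraries, summed over all kept cells, 0 of 10 members passed in each comparison (background 0.00513% for bilirubin against vehicle, 0.00513% for the knockout against WT bilirubin and 0% for the knockout against vehicle). At an unadjusted p under 0.05 there were 0, 1 and 2 members, beside a background of 10.6%, 3.51% and 6.31%. Slc40a1 came closest, with a CPM of 23.9 and 19.8 in WT vehicle, 30.1 and 13.5 in WT bilirubin, and 54.97 and 50.2 in TRPM2 Mg KO bilirubin. The knockout libraries were highest, by a log2 of 1.26 (SE 0.39, adjusted p = 1.00) over WT bilirubin and 1.27 (SE 0.39, adjusted p = 0.738) over vehicle, and the second was called at 1.34 with no low-count filter. Endothelial-like cells, where Slc40a1 is highest, were 8.04% and 6.15% of the placed cells in WT vehicle, 23.2% and 3.13% in WT bilirubin, and 28.3% and 30.96% in TRPM2 Mg KO bilirubin. Within endothelial-like cells the knockout overlapped WT bilirubin. The part of cell shares in the whole-library value was not tested.

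Whether a group difference in 1 class departed from that in the other classes was tested with an interaction term, chosen after seeing the data. No member passed in any comparison (0 of 60 each, background 1.21% for bilirubin against vehicle, 0% for the knockout against WT bilirubin and 0.0895% for the knockout against vehicle), and 12, 3 and 5 of 60 had an unadjusted p under 0.05, beside a background of 10.1%, 4.29% and 6%. The smallest adjusted p was 0.0949, for Fth1 in astrocyte-like cells under bilirubin (log2 −0.73). For endothelial-like cells the departure was 1.24 for Slc40a1 (adjusted p = 0.166) and 1.33 for Cp (adjusted p = 0.268), and for Slc48a1 in oligodendrocyte-like cells it was 0.87 (adjusted p = 0.123). For no member, then, was a difference in response between classes shown.

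Around the members, few haem and iron genes passed in the group comparisons. Of 55 tests of iron uptake, storage and trafficking genes, 2 rose with bilirubin, beside a background of 0.471% called over all genes. Both were for 1 gene, Lcn2, which encodes the siderophore-binding protein lipocalin 2. The list was chosen with earlier results of these data known, so the count does not set iron genes apart. In endothelial-like cells Lcn2 had a mean CPM of 222.1 in WT bilirubin against 11.2 in WT vehicle (log2 4.28, adjusted p = 5.54e-07). In choroid plexus epithelium-like cells it had 11.15 against 2.85 (log2 2.75, adjusted p = 0.0169), although the groups overlapped. DESeq2 gave a log2 difference of 2.52 there and no adjusted p. In the knockout Lcn2 was lower than in WT bilirubin in endothelial-like cells (43.3 against 222.1, log2 −2.50, adjusted p = 3.70e-04), the 1 call among the 55 tests (background 0.0259%). That call was lost without TRPM2 Mg KO bilirubin 1 (log2 −1.92), and the call in choroid plexus epithelium-like cells was lost without WT vehicle 2 (1.52) or WT bilirubin 1 (1.38). Lcn2 is also known as an acute-phase gene. Hfe in microglia-like cells, which tunes transferrin receptor uptake, had a log2 difference of 1.38 for bilirubin and did not pass (adjusted p = 0.107). It passed with DESeq2 (1.38), with no low-count filter (1.38) and with the replicate block (1.40). With 1 library left in the group, the difference was 1.12 without WT bilirubin 1 and 1.54 without WT bilirubin 2.

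Of 42 tests of haem synthesis genes 0 passed in each comparison, with 10, 0 and 6 at an unadjusted p under 0.05 (background 14.7%, 3.15% and 7.82%) and medians of 0.50, −0.09 and 0.58. The closest for bilirubin were Urod in endothelial-like cells (log2 1.61, adjusted p = 0.0623), Alas1, the rate-limiting enzyme, in choroid plexus epithelium-like cells (1.21, adjusted p = 0.0803) and Cpox in oligodendrocyte-like cells (1.15, adjusted p = 0.0825). Urod passed with no low-count filter (1.69) and stood at 1.68 without WT bilirubin 2, which leaves 1 library in the group. Cpox passed with no low-count filter (1.23) and with 2 markers per class (1.31). It stood at 1.34 without WT bilirubin 1 and at 1.01 without WT bilirubin 2. Haem uptake genes (21 tests), regulators (40) and NRF2 targets (60) had 0 called in each comparison, and 3, 1 and 8 at an unadjusted p under 0.05 for bilirubin, beside the same 14.7%. Bach1 in microglia-like cells had a log2 difference of 0.89 for bilirubin and did not pass. The difference was 1.17 without WT bilirubin 1. The immediate-early genes also had 0 of 71 called, with 21 at an unadjusted p under 0.05 for bilirubin (background 14.7%). Among them Junb in endothelial-like cells (log2 1.704, adjusted p = 0.0515) passed in 11 alternatives, including DESeq2, at 1.67 to 1.96. Socs3 (1.65) and Dusp1 (1.46) in microglia-like cells both had an adjusted p of 0.107. They passed with DESeq2, with no low-count filter and with the replicate block. Leaving out WT bilirubin 1 gave 1.72 and 1.55, and leaving out WT bilirubin 2 gave 1.52 and 1.31.

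Haemoglobin and erythroid transcripts fell with bilirubin in 8 of 26 tests, beside a background of 0.471% called over all genes. The median log2 difference over the 26 was −2.71. In the other comparisons 0 passed (medians 0.98 and −1.84, background 0.0259% and 0.0404%). In choroid plexus epithelium-like cells the differences were −2.74 for Hbb-bt, −2.47 for Hba-a2 and −2.41 for Hbb-bs, with adjusted p-values of 0.00722, 0.0139 and 0.0169. With DESeq2's Wald test and with 2 markers per class these 3 did not pass (adjusted p = 0.560 and 0.0599 for Hbb-bt, 0.578 and 0.0713 for Hba-a2, 0.561 and 0.0751 for Hbb-bs), at differences of −2.39 to −2.71. Globin RNA is a mark of red cells, and its level by library is given above with the depths. Whether it moved with the members was not tested.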

How the data were processed

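Mouse brain cells in 6 libraries (10x Genomics 3′ single-cell chemistry) were used, with groups and replicate numbers from the sample titles. The deposited matrices hold raw UMI counts per gene and barcode. Cell Ranger 8.0.0, a read aligner and counter, and Scanpy 1.9.6 are named with no role, per the submitters' processing notes, whereas the file headers name Cell Ranger 9.0.1. Both GRCm39 and mm10 are listed with no role, so no coordinates are given for counted genes. The members and gene lists were chosen with earlier results of these data known.

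The cell filter asked for at least 500 UMIs and 300 genes, with mitochondrial UMIs at 15% or less. From the classes, 1632 barcodes with at least 20% haemoglobin UMIs were set aside, but the whole-library sums include them. Counts were summed per library and class (104440 to 13360866 UMIs) and tested in edgeR 4.0.16 (R 4.3.3; TMM, filterByExpr, quasi-likelihood test, all 6 libraries, group as the only term), with Benjamini-Hochberg adjustment over all genes of a class at 0.05. The tests were tried on simulated data first, with genes changed in WT bilirubin. By class, 6.12% to 19% of 2-fold changes were recovered against WT vehicle, and 3.06% to 17.9% for the knockout against WT bilirubin. For 4-fold changes it was 69.1% to 87% and 57.7% to 88%. An absent call therefore does not exclude a 2-fold change. Intervals on pooled counts are 95% exact Poisson intervals and cover counting error only. Alternatives were DESeq2 1.42.0, other filters, scalings and gates, and each library left out. The border macrophage-like against microglia-like contrast was not run, since the former had 1 to 13 cells per library.

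All members are named. Every library's value is given for Hmox1, Blvrb, Slc40a1 and Cp in their highest class, and of each list at most 3 genes with the smallest p are named. Other values given by library were chosen after seeing the data. Samples with the same replicate number did not deviate together.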

Additional observations from a re-analysis of the deposited data

Results flagged for a closer look

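In the 11 classes too small to be tested, every member in both bilirubin groups was searched for rises over WT vehicle only. The search kept 5 values whose counting interval lay above that of WT vehicle. Falls were not searched for, and the share over all genes was not computed. The counting intervals say nothing of the spread between libraries. Ftl1 in border macrophage-like cells was at a CPM of 8925 (95% exact Poisson interval 8013 to 9912, 19 cells) in WT bilirubin and 8668 (7267 to 10259, 9 cells) in TRPM2 Mg KO bilirubin, against 5847 (4885 to 6943, 15 cells) in WT vehicle. Ftl1 in mural-like cells was at 2526 (2331 to 2733, 165 cells) in WT bilirubin against 1926 (1709 to 2163, 108 cells) in vehicle. Cp in fibroblast-like cells was at 64.0 (47.2 to 84.8, 171 cells) in WT bilirubin against 18.3 (4.99 to 46.9, 86 cells). Slc40a1 in neutrophil-like cells was at 220.6 (123.5 to 363.9, 15 UMIs in 18 cells) in TRPM2 Mg KO bilirubin against 19.5 (0.494 to 108.6, 1 UMI in 22 cells).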

How the results depend on the processing

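Member and class pairs called across classes numbered 49 of 60 with all libraries and 45 to 51 over leaving out each library. Of 637 values recomputed for the 49 calls, 607 kept direction and call and 28 no longer passed. The other 2 were turned by plain UMI totals, chosen after seeing the data: Ftl1 (−0.31) and Hmox2 (−0.076) in choroid plexus epithelium-like cells. The same totals lost 6 further calls. In the group comparisons 377 of 411 member values kept direction and call, 22 reversed and 12 passed the test, and of 328 values of list genes 281 did, 36 passed and 11 no longer passed. Members called for bilirubin against vehicle numbered 0 with all libraries, 1 with no low-count filter, 2 with at least 2 markers, and 0 to 5 over leaving out each library (0 to 2 for the knockout against WT bilirubin). In whole libraries the knockout against vehicle had 1 with no low-count filter. All genes called over the tested classes, 291 for bilirubin against vehicle, became 521 with DESeq2, 1790 with no filter, 595 with stricter cells, 580 with 2 markers, and 75 to 4501 over libraries left out, most without WT bilirubin 1. For the knockout against WT bilirubin the 16 became 7 with DESeq2, 83 with no filter and 20 to 960, and against vehicle the 25 became 191 with no filter, 112 with only the 4 libraries compared and 33 to 393. In whole libraries bilirubin against vehicle went from 1 to 82 (DESeq2), 585 (no filter), 0 (only 4 libraries) and 0 to 219, the knockout against WT bilirubin from 1 to 12, 181, 5 and 0 to 24, and the knockout against vehicle from 0 to 52 (DESeq2), 347 (no filter) and 0 to 10. The cause of these shifts was not tested. The replicate numbers did not pair the libraries (correlations of deviations −0.304 to 0.171), and with the replicate block all genes called became 1337, 25 and 68 in the classes, and 11 in whole libraries for bilirubin against vehicle. Hmox1 in microglia-like cells, knockout against vehicle, lies near 0 (0.00) and was −0.035 with median-of-ratios scaling, −0.025 with DESeq2, −0.024 with no filter, −0.034 with 4 libraries, −0.026 with 4 markers, −0.025 without shared barcodes and −0.65 to 1.27 over libraries left out. That range was −0.35 to 1.57 for bilirubin against vehicle and −0.62 to 0.049 for the knockout against WT bilirubin. It spanned 0 as well for endothelial-like Blvrb under bilirubin (−0.34 to 0.21), and for the knockout against WT bilirubin for Slc40a1 (−0.16 to 0.36) and Tfrc (−0.51 to 0.21). In astrocyte-like cells it was −1.60 to 0.18 for Ftl1 and −3.35 to 0.17 for Hmox1 under bilirubin, and −0.18 to 1.56 for Fth1 and −0.34 to 1.44 for Ftl1 in the knockout against WT bilirubin. Depth limits the oligodendrocyte-like and ependymal-like sums most, where 7 and 6 members passed the low-count filter.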

Other observations

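The rarer brain cells add to the picture of where these genes sit, as pooled levels over all 6 libraries with exact Poisson intervals for counting error. Border macrophage-like cells, the macrophages of the meninges and vessels, had Hmox1 at a CPM of 195 (95% interval 109 to 322, 43 cells) and Blvrb at 455 (317 to 633). Hmox1 was 77.4 (38.6 to 138.5) in monocyte or dendritic cell-like cells, 43.2 (26.0 to 67.4) in neutrophil-like cells and 5.57 (2.96 to 9.52) in T or NK cell-like cells. Cp was 181.6 (147 to 222) in mural-like cells, which wrap the vessels, and 56.2 (43.3 to 71.8) in fibroblast-like cells. Slc40a1 was 81.8 (57.3 to 113) in neutrophil-like cells.

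Barcodes with at least 20% haemoglobin UMIs, which carry red cell RNA, were rich in Blvrb, an enzyme known to be abundant in red cells. Per 1000000 UMIs other than haemoglobin, Blvrb was at 236.9 and 466.1 in these barcodes in WT vehicle, 191.3 and 162.6 in WT bilirubin, and 415.9 and 2870 in TRPM2 Mg KO bilirubin. The whole libraries, which include these barcodes, had 100.1 and 143.8, 129.9 and 105, and 126.1 and 152. Blvrb was higher in these barcodes in 6 of 6 libraries, 1.47 to 18.9 times, and the highest ratio rests on 11 UMIs in 4 cells. Other members were also higher there. Ftl1 was 1.24 to 1.80 times higher in every library, and Slc48a1 1.34 to 2.28 times in all but TRPM2 Mg KO bilirubin 2. In WT bilirubin 2 the ratio of Blvrb (1.55) was below those of Slc48a1 (2.15), Tfrc (2.10), Cp (1.82) and Ftl1 (1.56). The share over all genes was not computed.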
